A study of Mus musculus with 32 samples.

Results

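The genes that encode the mouse proteasome were followed in injured and regenerating shin muscle. The set was defined by annotation: protein-coding genes of the deposited table whose symbol begins with Psma, Psmb, Psmc, Psmd, Psme, Psmf or Psmg followed by a digit. This gave 50 of the 54532 genes in the table, and 49 of them had enough counts to be tested, among 17121 tested genes. Psmb8, Psmb9, Psmb10, Psme1 and Psme2 were set apart as the 5 immunoproteasome genes, against 45 others, of which 44 were tested. By role, the genes tested were 8 alpha and 7 constitutive beta subunits of the 20S core, the 5 immunoproteasome genes, 6 ATPases and 11 non-ATPase subunits of the 19S cap, 3 other activators or inhibitors and 7 assembly factors. The remaining 2, Psmc3ip and Psme2b, match the symbol pattern only: Psmc3ip encodes a recombination factor named for its binding to Psmc3, and Psme2b is a gene copy resembling Psme2.

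RNA was sequenced from the tibialis anterior, a fast muscle of the shin, of C57BL/6J mice. The groups were old mice on BI01, 7 and 35 days after an injury with barium chloride (written BaCl in the labels); old mice on vehicle, without injury and on the same days; and young mice on vehicle, without injury and on the same days. These 8 groups had 4 libraries each, 32 in all. BI01 is described by the submitters as a senolytic, and the study's title speaks of p53 and MDM2, a ubiquitin ligase for p53; the dose is not given in the sources used here, and ages are given only as young and old. Young mice with BI01 are not among the groups here, so BI01 was compared in old injured muscle only. Columns and library names of the uninjured groups carry the letters PBS. The uninjured columns also carry the name of the 35-day set, so an effect of day 7 and of the collection set cannot be told apart. Whether every library had an animal of its own is not stated, and p-values measure the spread between these samples.

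The proteasome is the protease that degrades proteins tagged with ubiquitin. Its 20S core is a barrel of alpha rings, which gate the entry, and beta rings, of which Psmb5, Psmb6 and Psmb7 carry the active sites. The 19S cap holds ATPases that unfold the substrate and non-ATPase subunits that bind and remove ubiquitin. In cells of the immune system, and in other cells exposed to interferon, Psmb8, Psmb9 and Psmb10 take the places of Psmb5, Psmb6 and Psmb7, and Psme1 and Psme2 form the PA28 cap. This form, the immunoproteasome, is known for making peptides for presentation on MHC class I. In muscle the proteasome is known for degrading contractile proteins during atrophy and repair.

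Promoter sequence is shown for 3 members because the pairs of exchangeable catalytic subunits are regulated by different known factors: Nfe2l1, which acts through antioxidant response elements, on the constitutive subunits, and interferon-responsive factors such as Irf1 on the immunoproteasome genes. The RefSeq promoter table (GRCm38.p6) held 45 windows for 42 of the 50 genes, each read over the 250 bases before the start. On both strands, TGACNNNGC, the core of an antioxidant response element, was present in 5 windows (11.1%), against 10.2% of all 32851 windows. GAAANNGAAA, an interferon-stimulated response element, was present in 3 windows (6.67%), against 2.98% of all. TTCNNNGAA, the core of a gamma-activated site, was present in 2 windows (4.44%), against 7.02% of all, and these were Psmb8 and Psmg1. Among the 6 windows of immunoproteasome genes, Psmb8 alone held any of the 3 motifs. A match is a description of the letters and not a binding site. Counted from the start used in that table, the match of Psmb8 lay 97 bases before it, that of Psmb5 47 bases and that of Psmb6 9 bases. The deposited table gives Psmb8 an earlier start, so the stretch of Psmb8 lies inside its gene span there, with the match 377 bases after that start, while those of Psmb5 and Psmb6 lie outside theirs. The stretches are written 5′ to 3′ on the strand of the gene, with the motif in capitals.
Psmb8, chr17:34198088-34198116, plus strand: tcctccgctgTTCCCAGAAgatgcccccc
Psmb5, chr14:54618023-54618195, minus strand: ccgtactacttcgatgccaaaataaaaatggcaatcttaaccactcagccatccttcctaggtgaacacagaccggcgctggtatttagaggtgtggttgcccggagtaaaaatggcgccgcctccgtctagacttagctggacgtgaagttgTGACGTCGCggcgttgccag
Psmb6, chr11:70525157-70525356, plus strand: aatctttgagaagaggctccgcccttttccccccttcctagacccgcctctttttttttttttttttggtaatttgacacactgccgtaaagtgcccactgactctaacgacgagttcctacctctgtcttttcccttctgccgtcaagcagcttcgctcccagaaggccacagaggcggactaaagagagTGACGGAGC

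Libraries held 14129350 to 30439358 counts. Levels are counts per 1000000 counts (CPM) after TMM scaling, which adjusts libraries so that the bulk of genes has a fold change near 1; group values are means ± SD over 4 libraries. A gene was called at a Benjamini-Hochberg adjusted p under 0.05 over the 17121 genes, in the quasi-likelihood test of edgeR. Scaling matters here: factors ran between 0.67 and 0.73 for young uninjured and between 1.51 and 1.87 for old vehicle libraries at day 7. Under scaling by library size alone, the all-gene median of the day 7 log2 fold changes was 1.05 for young and 1.15 for old muscle. Changes are therefore given relative to TMM, and the other scaling is named where it alters a direction. Shares of all genes given for comparison are on the TMM scale throughout. None is given for library size alone, where day 7 calls are to be read beside these medians. The share of all counts that fell on the 50 genes is itself a value by library size, so it depends on the counts of all other genes. It was 0.360% ± 0.017 at day 7 against 0.473% ± 0.098 uninjured in young muscle, and 0.398% ± 0.049 at day 7 against 0.413% ± 0.034 uninjured in old muscle. Markers of mature fast fibres, the defining cells of this muscle, were abundant: 7 genes summed to 208100 to 213700 CPM in old and 230500 to 298000 CPM in young uninjured muscle. Old uninjured library 7 stood apart with 724 CPM of 4 regenerating-fibre markers, against 13.9 to 254 CPM in the other old uninjured libraries. Without it, 7 rather than 9 members were called for age in uninjured muscle and 38 rather than 41 for day 7 in old muscle.

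In young uninjured muscle, levels per kilobase of the table's gene length differed widely between the members. Psmd2, the large scaffold subunit of the 19S base, had 172 ± 44.9 CPM per kilobase, and Psmd8, a lid subunit, had 130 ± 30.5. Psme4, which encodes the activator PA200, reached 104 ± 27.2 CPM per kilobase. The catalytic immunoproteasome genes were near the other end, with 2.97 ± 0.974 CPM per kilobase for Psmb10, 0.858 ± 0.457 for Psmb8 and 0.321 ± 0.158 for Psmb9. Psmb11, the beta subunit known from the thymus, had 50 counts in all 32 libraries and was not tested. Psma8, the alpha subunit known from the testis, had 1 count in the 4 young uninjured libraries.

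**Figure D1:**
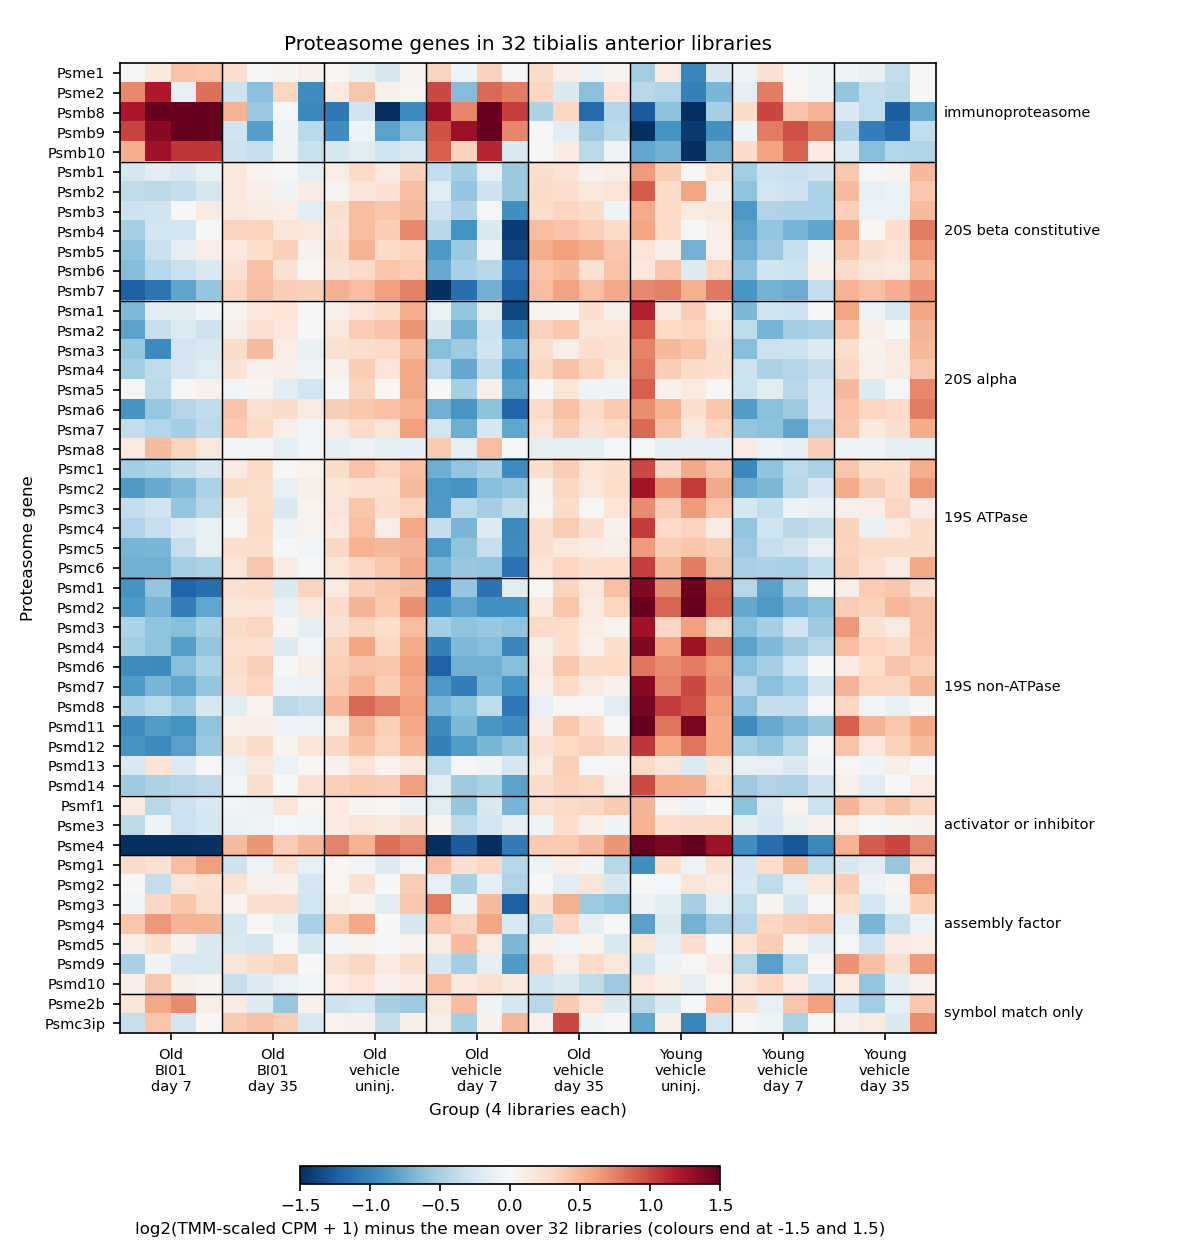
Levels of the 49 tested genes in 32 libraries as log2(TMM-scaled CPM + 1) minus the gene's mean over all libraries; rows are genes grouped by role, columns are libraries grouped by age, treatment and day, and colours end at 1.5 either way. Psmb8, Psmb9 and Psmb10 are red and the 19S rows and Psme4 are blue in the day 7 columns, while young uninjured columns are reddest in the 19S rows; the blue of the 19S rows at day 7 is relative to TMM scaling.

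The catalytic immunoproteasome genes were higher after injury at both ages. At day 7, 5 of the 5 immunoproteasome genes were called higher than in uninjured muscle in young mice and 3 of the 5 in old mice, and with library size alone it was 5 of 5 at both ages. For comparison, on the TMM scale 33.3% of all tested genes were called higher in young and 34.4% in old muscle (60.8% and 64.2% in either direction). With library size alone the all-gene median was raised as well, as given above. Because the samples are bulk tissue, fewer cells of a type and less RNA per cell cannot be told apart, and the same holds for more.

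Psmb8 encodes the immunoproteasome's counterpart of Psmb5 (Psmb8, chr17:34197721-34201454, plus strand, mm10). In young muscle it had 6.76, 11.9, 7.68 and 8.20 CPM at day 7, against 1.70, 3.20, 0.920 and 3.57 CPM uninjured. Old vehicle muscle had 14.9, 9.68, 19.2 and 12.2 CPM at day 7, against 2.06, 4.22, 1.28 and 2.31 CPM uninjured. At each age the lowest day 7 library was above the highest uninjured one. Psmb8 thus had a log2 fold change of 1.88 (SE 0.42, adjusted p = 0.000267) in young and 2.46 (SE 0.41, adjusted p = 4.41e-06) in old muscle.

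Psmb9 replaces Psmb6 and lies beside Psmb8 in the MHC region (chr17:34181988-34187764, minus strand). Young muscle had 3.72, 7.50, 8.71 and 7.40 CPM at day 7, against 0.541, 1.69, 0.828 and 1.64 CPM uninjured. Old vehicle muscle had 8.58, 11.2, 15.9 and 7.20 CPM at day 7, against 1.60, 3.74, 1.84 and 2.22 CPM uninjured. The groups did not overlap at either age, and the log2 fold changes were 2.55 (SE 0.38, adjusted p = 9.23e-07) in young and 2.16 (SE 0.34, adjusted p = 2.5e-06) in old muscle. Psmb9 overlaps Tap1 on the opposite strand, and whether the counting used strand is not given in the sources used here, so its counts may include reads of Tap1, the peptide transporter, which rose as well.

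Psmb10 replaces Psmb7 and lies apart from the other immunoproteasome genes (chr8:105935735-105938444, minus strand). It had 12.9, 16.5, 20.2 and 11.5 CPM at day 7 in young muscle, against 5.72, 5.96, 2.58 and 5.98 CPM uninjured, and these groups did not overlap. It had 20.4, 13.6, 24.3 and 8.79 CPM at day 7 in old vehicle muscle, against 8.77, 9.36, 8.32 and 8.86 CPM uninjured. In old muscle the lowest day 7 library, library 10, was within the uninjured range. Psmb10 thus had a log2 fold change of 1.59 (SE 0.26, adjusted p = 3.74e-06) in young and 0.93 (SE 0.25, adjusted p = 0.00156) in old muscle. Psmb8 and Psmb10 overlap a predicted gene each on the opposite strand (Gm20496 and Gm16156).

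Of the PA28 pair, Psme2 (chr14:55587441-55591113, minus strand) had 8.89, 17.6, 10.1 and 9.36 CPM at day 7 in young muscle, against 7.19, 6.94, 4.41 and 5.79 CPM uninjured. Its log2 fold change was 0.91 (SE 0.34, adjusted p = 0.0196) in young muscle, and it was not called without day 7 library 5 (adjusted p = 0.117) or without uninjured library 3 (adjusted p = 0.0656). In old vehicle muscle Psme2 had 20.7, 5.92, 18.6 and 17.5 CPM at day 7, against 10.9, 13.5, 10.4 and 10.1 CPM uninjured. There the day 7 libraries lay on both sides of the uninjured ones, and the log2 fold change of 0.48 (SE 0.32, adjusted p = 0.195) did not pass. Psme1 (chr14:55578123-55581529, plus strand) had 26.4, 32.2, 27.9 and 26.5 CPM at day 7 in young muscle, against 19.02, 30.3, 13.6 and 23.3 CPM uninjured. The groups overlapped, and its log2 fold change of 0.39 (SE 0.16, adjusted p = 0.0402) lost the call in 5 of the 8 fits that left out a library; without uninjured library 3 it was 0.23. Psme1 in old vehicle muscle had 35.1, 26.2, 35.5 and 28.1 CPM at day 7, against 28.4, 25.6, 23.3 and 28.8 CPM uninjured. These groups overlapped, and the log2 fold change was 0.23 (SE 0.16, adjusted p = 0.208). With library size alone Psme1 (1.28 in young and 1.25 in old muscle) and Psme2 (1.81 and 1.51) were called higher at both ages. Under that scaling the all-gene median was raised too, as given above, and Psme1 lay not far above it. Psme1 overlaps Emc9 on the opposite strand, and reads of Psme2 may be shared with its copy Psme2b.

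Set against this, the constitutive catalytic subunits were lower or not called on the TMM scale. Psmb7 (chr2:38588036-38644087, minus strand), the subunit with trypsin-like activity, had 56.6, 63.7, 61.9 and 80.9 CPM at day 7 in young muscle, against 173, 178, 152 and 182 CPM uninjured. Psmb7 in old vehicle muscle had 36.4, 47.5, 63.2 and 44.4 CPM at day 7, against 152, 145, 160.4 and 178 CPM uninjured. These groups were far apart, with log2 fold changes of -1.38 (SE 0.15, adjusted p = 2.89e-09) in young and -1.73 (SE 0.15) in old muscle, and Psmb7 also fell with library size alone (-0.52 and -0.74). The gene overlaps Nek6 on the opposite strand.

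Psmb6 (chr11:70525367-70527858, plus strand), of caspase-like activity, had 66.3, 82.8, 81.2 and 107 CPM at day 7 in young muscle, against 114, 136, 88.7 and 126 CPM uninjured. In old vehicle muscle it had 59.6, 72.3, 75.9 and 46.9 CPM at day 7, against 118, 125, 136 and 133 CPM uninjured. The groups overlapped in young muscle and were separate in old muscle. The log2 fold change was -0.46 (SE 0.16, adjusted p = 0.0114) in young and -1.01 (SE 0.16) in old muscle, but with library size alone it was 0.40 in young and called higher, and near 0 in old muscle.

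Psmb5 (chr14:54614119-54618022, minus strand), of chymotrypsin-like activity, had 48.0, 54.2, 62.3 and 76.3 CPM at day 7 in young muscle, against 91.4, 85.6, 48.3 and 83.8 CPM uninjured. It had 43.3, 53.6, 74.7 and 30.3 CPM at day 7 in old vehicle muscle, against 96.3, 114, 97.2 and 101 CPM uninjured. Uninjured library 3 of the young mice was the lowest of its group and within the day 7 range. The log2 fold change was -0.36 (SE 0.20, adjusted p = 0.121) in young and -1.02 (SE 0.20, adjusted p = 6.46e-05) in old muscle; with library size alone it was 0.49 and called higher in young muscle, and -0.02 in old muscle.

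**Figure D2:**
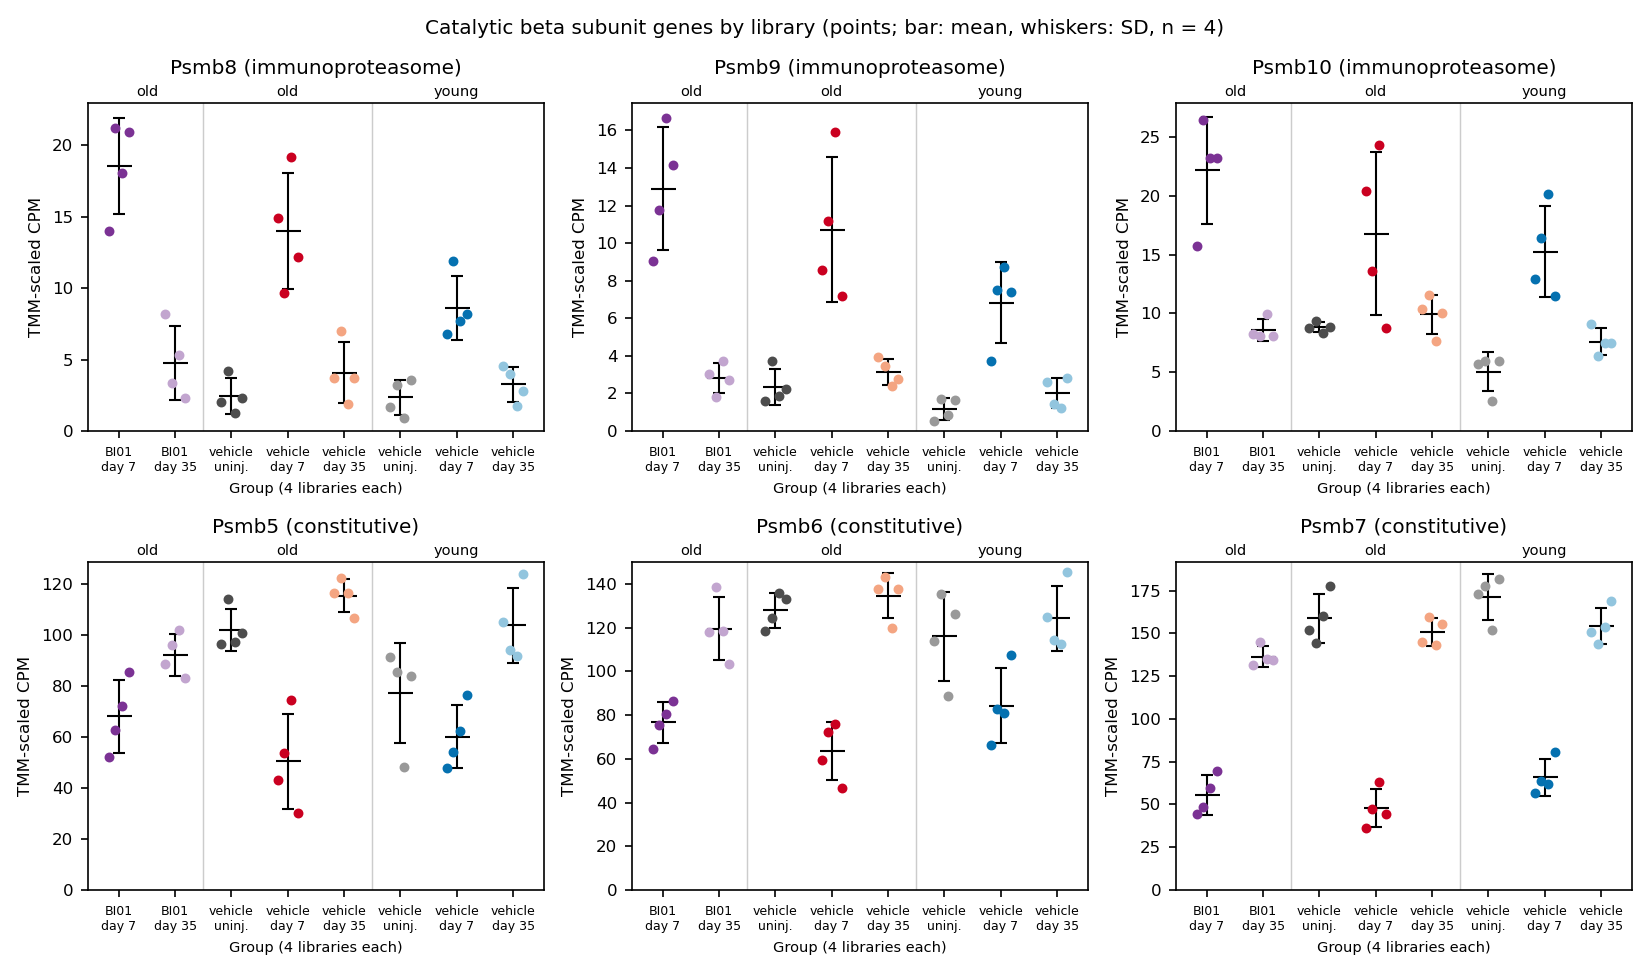
TMM-scaled CPM of the 3 catalytic immunoproteasome genes and the 3 constitutive catalytic genes they replace, by group; points are libraries, bars mark the mean and SD of 4 libraries. At day 7 Psmb8 reached 9.68 to 19.2 CPM in old vehicle muscle, against 1.28 to 4.22 CPM uninjured, while Psmb7 had 36.4 to 63.2 CPM at day 7, against 145 to 178 CPM uninjured.

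The balance within each exchangeable pair does not depend on scaling between libraries, since both values come from the same library. The size of a percentage, and the gap between pairs, does rest on the table's gene lengths. These are 2736 bases for Psmb8 and 899 for Psmb5, 3659 for Psmb9 and 1872 for Psmb6, and 1705 for Psmb10 and 3421 for Psmb7. The change between groups within a pair does not rest on them. Per kilobase, Psmb8 was 4.85% ± 1.63 of Psmb5 at day 7 in young muscle, against 0.967% ± 0.408 uninjured. At the old age it was 9.73% ± 3.20 of Psmb5 at day 7, against 0.776% ± 0.325 uninjured. The groups were separate at both ages, with at least 3.53% at day 7 and at most 1.40% uninjured.

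Psmb9 was 4.13% ± 1.17 of Psmb6 at day 7 in young muscle, against 0.506% ± 0.194 uninjured. It was 8.46% ± 1.53 of Psmb6 at day 7 in old vehicle muscle, against 0.944% ± 0.403 uninjured. The old day 7 libraries, from 7.36% to 10.7%, lay above the young day 7 libraries, from 2.87% to 5.49%.

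Psmb10 was the closest to its counterpart with these gene lengths: per kilobase it was 47.9% ± 15.3 of Psmb7 at day 7 in young muscle, against 5.84% ± 1.63 uninjured. Its share in old vehicle muscle was 71.8% ± 31.3 at day 7, from 39.7% to 113%, against 11.2% ± 1.34 uninjured. The young and old day 7 libraries overlapped for this pair. By day 35 the ratios in vehicle muscle were 13.1% in old and 9.91% in young muscle for Psmb10, 1.15% and 1.04% for Psmb8, and 1.18% and 0.813% for Psmb9.

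**Figure D3:**
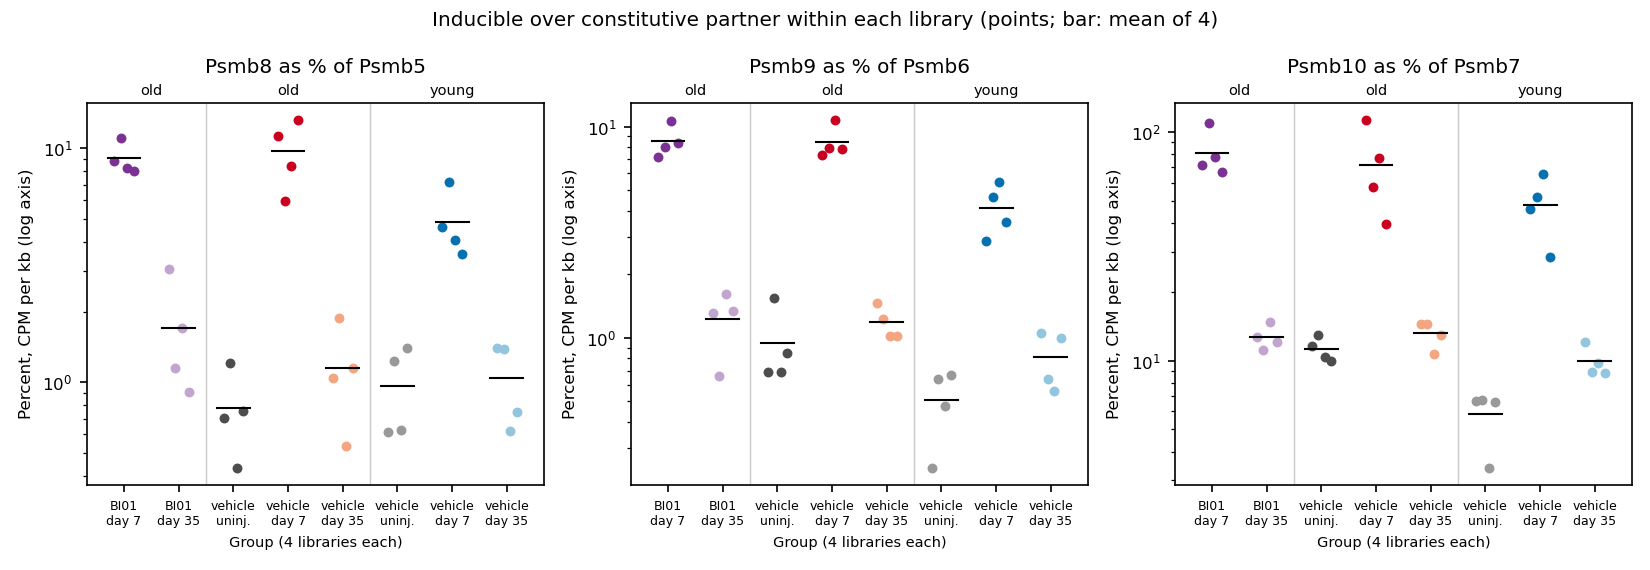
Level per kilobase of each catalytic immunoproteasome gene as a percentage of the constitutive gene it replaces, within each library, by group on a log axis; points are libraries and bars the group means. Psmb8 over Psmb5 was 5.94% to 13.2% in old vehicle muscle at day 7, against 0.433% to 1.22% uninjured.

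As a summary over the 5 genes, the mean log2(CPM + 1) of the immunoproteasome genes minus that of the other 44 tested members was -1.65 ± 0.27 at day 7 against -3.65 ± 0.45 uninjured in young muscle. It was -1.16 ± 0.27 at day 7 against -2.99 ± 0.19 uninjured in old vehicle muscle. At day 35 it was -2.71 ± 0.26 in old vehicle and -3.06 ± 0.12 in young muscle. These are descriptions with no test.

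Markers of other cells moved with these genes. Summed CPM of 3 leukocyte genes (Ptprc, Coro1a and Laptm5) was 103 to 241 at day 7 in young muscle, against 4.14 to 18.4 uninjured, and 258 to 372 at day 7 in old vehicle muscle, against 7.10 to 27.5 uninjured. The 7 macrophage genes summed to 265 to 535 CPM at day 7 in young muscle, against 14.6 to 49.7 uninjured, and to 530 to 838 CPM at day 7 in old vehicle muscle, against 7.50 to 50.5 uninjured; 7 of 7 were called higher at both ages. The 8 T and NK cell genes summed to 8.14 to 17.8 CPM at day 7 in young muscle, against 0.0773 to 1.06 uninjured, where 4 of the 8 had no counts, and to 9.69 to 35.1 CPM at day 7 in old vehicle muscle, against 1.40 to 3.36 uninjured, where 1 had none. Summed mature fast fibre genes were 68490 to 147900 CPM at day 7 in young muscle, against 230500 to 298000 uninjured, and 10660 to 62500 CPM at day 7 in old vehicle muscle, against 208100 to 213700 uninjured. Regenerating fibres and fibroblasts moved as well. The 4 regenerating-fibre genes summed to 2652 to 5752 CPM at day 7 in young muscle, against 13.97 to 52.97 uninjured, and to 2407 to 5564 CPM at day 7 in old vehicle muscle, against 13.9 to 724 uninjured. The 4 fibroblast genes summed to 6256 to 9455 CPM at day 7 in young muscle, against 216 to 375.6 uninjured, and to 7563 to 12120 CPM at day 7 in old vehicle muscle, against 142 to 423 uninjured. The part of these cells in the changes of proteasome genes was not tested.

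Across the 44 other members tested, day 7 brought 1 higher and 32 lower calls in young muscle and 2 higher and 36 lower calls in old vehicle muscle on the TMM scale. For comparison, 27.5% of all tested genes were called lower in young and 29.8% in old muscle. The median log2 fold change of the 49 members was -0.85 in young and -0.83 in old muscle, beside 0.17 and 0.14 for all genes tested. With library size alone the 44 members gave 14 higher and 11 lower calls in young and 13 higher and 5 lower calls in old muscle. Those calls stand beside an all-gene median that was itself raised, as given above. For most of these genes the direction thus holds relative to other genes and not per count sequenced. The day 7 libraries were all below the uninjured ones for 30 of the 49 members in young and 35 in old muscle, beside 21.9% and 27.9% of all genes. They were all above for 4 members in young and 3 in old muscle, beside 27.2% and 29.1% of all genes.

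The 19S cap held most of the falls that did not hang on scaling. Of its 11 non-ATPase genes, 10 in young and 11 in old muscle were called lower on the TMM scale (medians -1.37 and -1.27), and with library size alone 7 were lower and 1 higher in young and 3 lower and 1 higher in old muscle. Psmd13, a lid subunit, was the gene with the higher call under library size alone; on the TMM scale its log2 fold change was -0.25 (adjusted p = 0.0773) in young and -0.30 (adjusted p = 0.0309) in old muscle.

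Psmd11 (chr11:80428615-80473248, plus strand), which helps assemble the lid and dock it on the core, had the largest fall of the class in young muscle, with 50.4, 57.4, 61.3 and 65.1 CPM at day 7, against 409, 171, 261 and 144 CPM uninjured. The log2 fold change was -2.07 (SE 0.20, adjusted p = 5.67e-10), and the uninjured libraries, though all higher, differed widely among themselves. Psmd2 (chr16:20651652-20663414, plus strand), the scaffold that receives ubiquitin carriers, had 170.2, 161, 179 and 188 CPM at day 7 in young muscle, against 839, 532, 861 and 540.4 CPM uninjured, a log2 fold change of -1.99 (SE 0.15). Old vehicle muscle had 154, 167, 155 and 154 CPM at day 7, against 352, 413, 383 and 468 CPM uninjured, a log2 fold change of -1.36 (SE 0.15). Old and young muscle were thus close at day 7, and the young uninjured libraries were the highest of the series for this gene.

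Psmd8 (chr7:29174188-29180701, minus strand), a lid subunit, led the class in old muscle with 119, 126, 148 and 91.0 CPM at day 7, against 269.9, 350.1, 327 and 297 CPM uninjured. These libraries did not overlap, and the log2 fold change was -1.37 (SE 0.17, adjusted p = 2.82e-08); with library size alone it was -0.36 (adjusted p = 0.0537).

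The 6 ATPases, which form the ring that unfolds substrates, were called lower at both ages on the TMM scale, with a median log2 fold change of -1.04 in each; with library size alone 2 were lower in young and none in old muscle. Psmc2 (chr5:21785283-21803787, plus strand) led in young muscle, with 65.4, 69.0, 82.5 and 92.9 CPM at day 7, against 265, 179, 231 and 164 CPM uninjured, a log2 fold change of -1.44 (SE 0.15, adjusted p = 1.58e-09). Psmc5 (chr11:106256154-106263120, plus strand) led in old muscle, with 60.0, 71.9, 86.0 and 56.8 CPM at day 7, against 136, 157, 154 and 157 CPM uninjured, a log2 fold change of -1.14 (SE 0.14, adjusted p = 2.38e-08). In each case the groups were separate.

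Among alpha subunits, 7 of 8 were called lower at both ages (median -0.85 in young and -0.84 in old muscle), and with library size alone none was called lower. Psma7 fell by 1.08 on the log2 scale in young muscle (SE 0.15), with 53.4, 52.4, 46.2 and 58.8 CPM at day 7, against 146, 110, 90.6 and 100.1 CPM uninjured. Psma8 moved against its class and was called higher in old muscle (adjusted p = 0.0102), on few counts. Old vehicle libraries had 0.451, 0, 0.526 and 0.0941 CPM of it at day 7, so most of these counts came from libraries 7 and 9. Psma8 passed the count filter through old day 7 libraries, where it was high, so its call is no independent support. It had 13 counts in the 4 young libraries at day 7 against 1 uninjured, a ratio of shares of 6.75 with a counting interval (95%, exact) of 1.01 to 287, and 28 counts in old vehicle muscle at day 7 against 1 uninjured, a ratio of 19.9 with an interval of 3.29 to 814. These intervals cover counting error only and not the spread between libraries.

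Among the activators and inhibitors, Psme4 showed the largest fall of any member. PA200, its product, is a cap known for work on acetylated histones, in nuclei and in sperm. Psme4 (chr11:30771726-30880361, plus strand) had 144, 124, 112 and 139.6 CPM at day 7 in young muscle, against 922, 733, 1172 and 663 CPM uninjured. Old vehicle libraries had 81.3, 115, 86.6 and 132 CPM at day 7, against 459, 392, 485 and 459 CPM uninjured. The groups were far apart at both ages. Psme4 thus had a log2 fold change of -2.75 (SE 0.18, adjusted p = 2.14e-13) in young and -2.11 (SE 0.17, adjusted p = 1.65e-11) in old muscle, and -1.86 and -1.13 with library size alone. Psme4 overlaps a predicted gene on the opposite strand, Gm12103. Psme3, which encodes the nuclear PA28 subunit, and Psmf1, an inhibitor of the core in vitro, had log2 fold changes of -0.46 and -0.43 in young and -0.37 and -0.47 in old muscle, called lower on the TMM scale and higher with library size alone.

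Most assembly factors were not called. Of 7, 1 was called higher in young muscle and 2 were called lower in old muscle, beside 29.8% of all genes called lower there. The median log2 fold change was 0.07 at each age. With library size alone 6 of 7 were called higher at both ages, where the all-gene median was raised as well. Psmg4, a chaperone of the alpha ring, had 3.20, 6.15, 6.38 and 6.54 CPM at day 7 in young muscle, against 2.24, 3.92, 2.48 and 2.99 CPM uninjured, a log2 fold change of 0.93 (SE 0.27, adjusted p = 0.00403) between groups that overlapped. Psmd9, a chaperone of the 19S base, had 15.1, 12.5, 16.5 and 9.69 CPM at day 7 in old vehicle muscle, against 21.6, 22.9, 20.3 and 22.2 CPM uninjured, a log2 fold change of -0.69 (SE 0.16, adjusted p = 0.000484) that was 0.32 with library size alone. Psmg2 was the other lower call in old muscle (-0.49, adjusted p = 0.013). Of the pair that match by symbol only, Psme2b was called higher in old muscle, with 7.83 ± 1.96 CPM at day 7 against 5.21 ± 0.559 CPM uninjured, and lost the call in 6 of the 8 fits that left out a library.

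**Figure D4:**
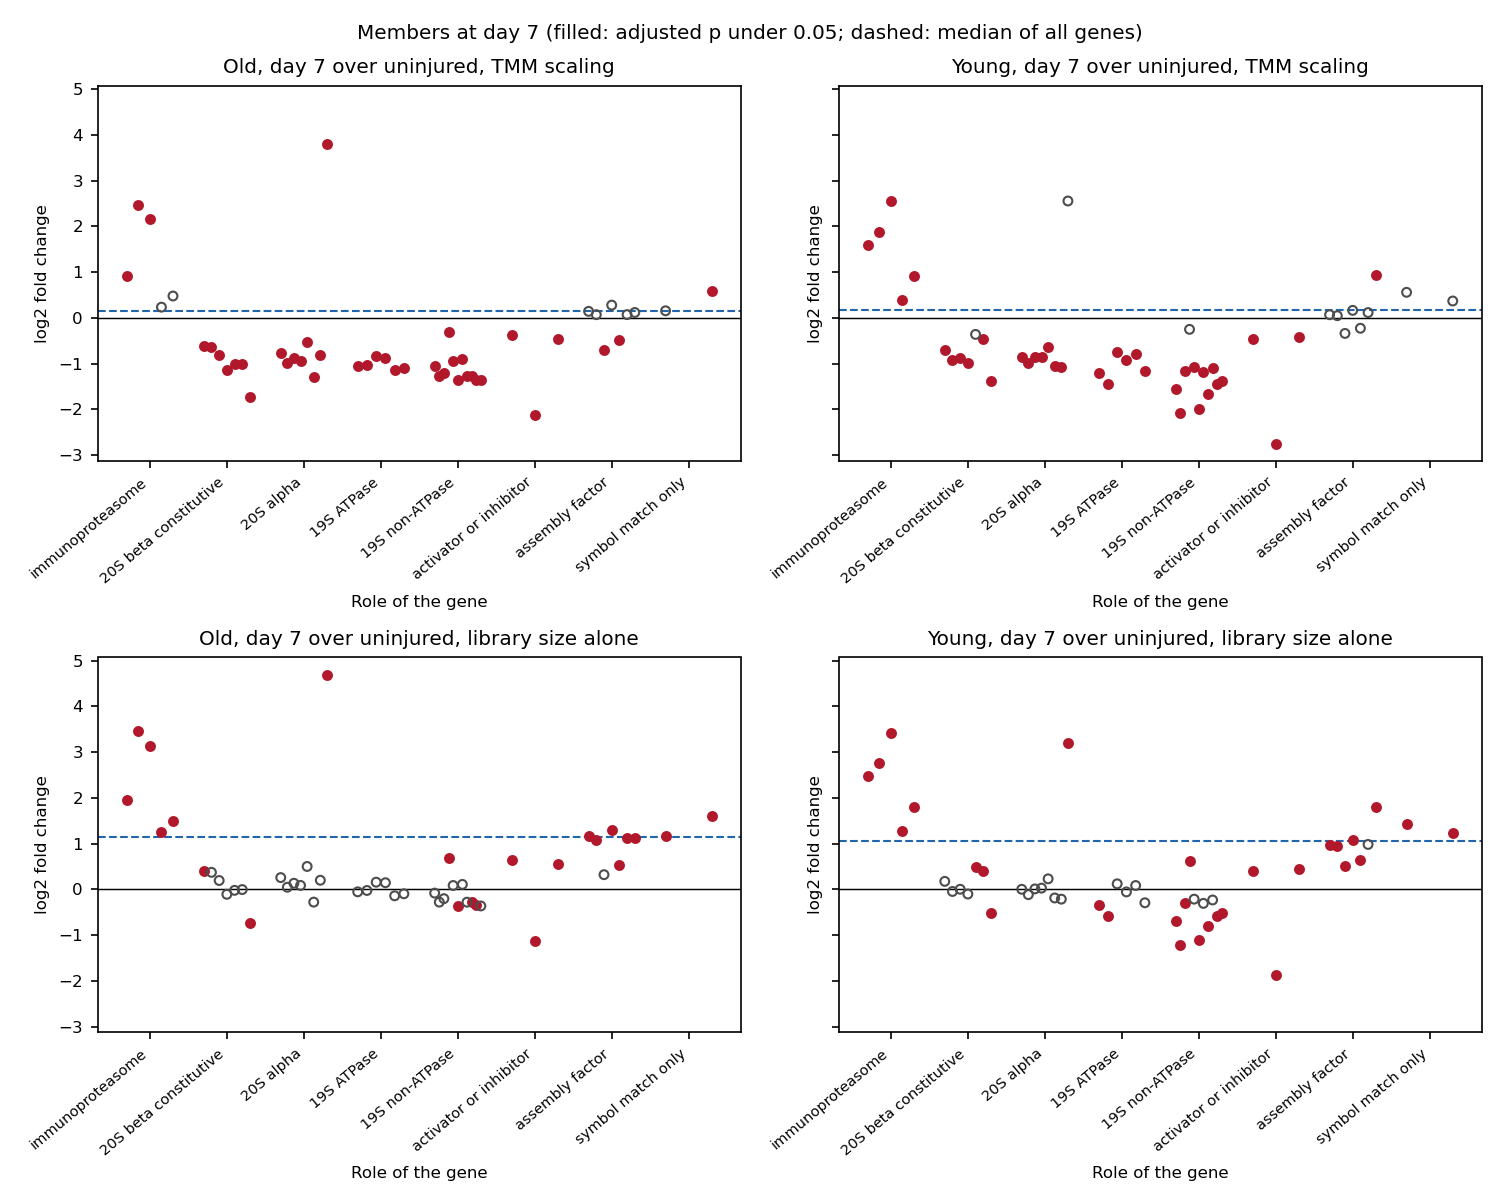
Log2 fold changes at day 7 over uninjured muscle by role, in old and young vehicle muscle, on the TMM scale (upper panels) and with library size alone (lower panels); each point is a gene, filled where called, and the dashed line is the median of all genes tested. On the TMM scale, immunoproteasome genes lie above 0, from 0.23 to 2.46 in old and from 0.39 to 2.55 in young muscle, and the 19S genes below it; with library size alone the medians of the 19S non-ATPase genes are -0.28 in old and -0.52 in young muscle.

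The size of the day 7 response was compared between ages as a difference of differences, old minus young. No member was called, beside 7.7% of all genes (3.22% higher and 4.48% lower); 3 members had an unadjusted p under 0.05 in each direction. Psmd2 came closest with a log2 difference of 0.63 (adjusted p = 0.0577), followed by Psmd11 with 0.80 (adjusted p = 0.0718) and Psme4 with 0.63 (adjusted p = 0.0914), each a smaller fall in old muscle. DESeq2 called these 3 (adjusted p = 0.00626, 0.0232 and 0.0245), as did edgeR with library size alone. For Psmb8 the difference was 0.58 with a 95% interval from -0.58 to 1.75, and for Psmb10 it was -0.66 (adjusted p = 0.251), so an age difference of the immunoproteasome response was not detectable at this spread.

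In old uninjured muscle 2 members were called higher and 7 lower than in young uninjured muscle, beside 5.79% and 7.65% of all genes (13.4% in either direction), and the median of the 49 was -0.12, beside 0.09 for all genes. Scaled by library size it was 6 higher and 5 lower, with no share of all genes given for that scaling. TMM factors ran from 0.775 to 0.825 in old and from 0.673 to 0.734 in young uninjured libraries. Library size alone therefore shifts the fold changes of all genes upward in this comparison. Libraries did not overlap for 4 members with old higher and 9 with old lower, beside 10.5% and 9.32% of all genes. The 7 lower genes were Psmd1, Psmd2, Psmd4, Psmd7 and Psmd11 of the 19S non-ATPase class, the ATPase Psmc2, and Psme4. The other 6 non-ATPase and 5 ATPase genes were not called, and the class medians were -0.37 and -0.24. The 8 alpha and 7 constitutive beta subunits had no call on the TMM scale, with medians of -0.13 and 0.11. All 8 alpha genes had negative log2 fold changes on that scale. With library size alone, of the alpha genes only Psma1 and Psma8 stayed negative, at -0.04 and -0.34, and no alpha gene was called. Psmb5 was called higher in edgeR under that scaling (0.60, adjusted p = 0.0444). No test compared the classes. Regenerating-fibre markers differed between the same groups: Myh3, Myh8 and Mymk, 3 of the 4, were called higher in old uninjured muscle, with log2 fold changes of 6.35, 2.61 and 6.497, and the 4 summed to a median of 189 CPM in old and 28.8 CPM in young uninjured muscle (13.9 to 724 and 13.97 to 52.97 CPM). Their part in the age result was not tested beyond leaving out old library 7, as given above. The age comparison shares the young uninjured libraries with the comparisons of young muscle at day 7 and day 35.

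Psme4 had 459, 392, 485 and 459 CPM in old uninjured muscle, against 922, 733, 1172 and 663 CPM in young uninjured muscle. No library overlapped, and the log2 fold change was -0.96 (SE 0.17, adjusted p = 0.000361), or -0.76 with library size alone. Psmd2 had 352, 413, 383 and 468 CPM in old, against 839, 532, 861 and 540.4 CPM in young uninjured muscle, a log2 fold change of -0.78 (SE 0.15, adjusted p = 0.000763). Psmc2 had 126, 128, 130 and 155 CPM in old, against 265, 179, 231 and 164 CPM in young uninjured muscle, a log2 fold change of -0.64 (SE 0.15, adjusted p = 0.00394). For both genes each old library was below each young one. Young libraries 1 and 3 were above libraries 2 and 4 for Psme4, Psmd2 and Psmc2. The size of these differences thus rests in part on libraries 1 and 3, and no fit left out both. Psmd11 had 107, 138, 125 and 146 CPM in old, against 409, 171, 261 and 144 CPM in young uninjured muscle, with a log2 fold change of -0.93 (SE 0.20, adjusted p = 0.002) that was -0.57 without young library 1.

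On the other side, Psmb10 was called higher in old uninjured muscle, with 8.77, 9.36, 8.32 and 8.86 CPM, against 5.72, 5.96, 2.58 and 5.98 CPM in young uninjured muscle. The groups did not overlap, and the log2 fold change was 0.80 (SE 0.26, adjusted p = 0.0357), but the call was lost in 6 of the 8 fits that left out a library. Psmb9 and Psme2 had log2 fold changes of 1.04 (SE 0.38, adjusted p = 0.07) and 0.88 (SE 0.34, adjusted p = 0.0785) and were not called. Library size alone, which shifts the fold changes of all genes upward here, called both. DESeq2 called Psmb9 (adjusted p = 0.0497) and a fit of only these groups called Psme2 (adjusted p = 0.0317). Psmb8 and Psme1 had 0.11 and 0.30. Summed T and NK cell markers were 1.40 to 3.36 CPM in old and 0.0773 to 1.06 CPM in young uninjured muscle. Most of the old sum was Cd3e, at a mean of 1.97 CPM, and it was the 1 gene of the 8 called for age. Leukocyte markers were 7.10 to 27.5 CPM in old and 4.14 to 18.4 CPM in young uninjured muscle. The part of these markers in the result was not tested. Psmg4, the assembly chaperone, was called higher with 6.41, 7.45, 4.72 and 3.84 CPM in old, against 2.24, 3.92, 2.48 and 2.99 CPM in young uninjured muscle, a log2 fold change of 0.95 (SE 0.27, adjusted p = 0.0194), in groups that overlapped. Its call was lost in 4 of the 8 fits that left out a library.

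A within-library measure of cap against core is free of scaling. The mean log2(CPM + 1) of the 11 19S non-ATPase genes exceeded that of 7 alpha genes (Psma8 left out) by 0.93 ± 0.08 in old uninjured muscle, against 1.27 ± 0.15 in young uninjured muscle. It was 0.71 ± 0.34 in old vehicle and 0.82 ± 0.07 in young muscle at day 7, and 0.81 ± 0.04 and 0.85 ± 0.20 at day 35. The old uninjured libraries reached 1.00 at most, and the young ones were at 1.16 or above, a description with no test.

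At day 35 fewer members differed from uninjured muscle than at day 7. In young muscle 1 member was called higher and 12 lower than uninjured, beside 7.06% and 8.66% of all genes (15.7% in either direction). The median of the 49 was -0.15, beside 0.13 for all genes. With library size alone 2 members were called higher and 5 lower, with no share of all genes given for that scaling. TMM factors ran from 0.769 to 0.862 at day 35 and from 0.673 to 0.734 uninjured, so library size alone shifts the fold changes of all genes upward here. Libraries did not overlap for 3 members with day 35 higher and 12 with day 35 lower, beside 11.2% and 8.6% of all genes. The lower calls were 9 of the 11 non-ATPase genes (Psmd1, Psmd2, Psmd4, Psmd6, Psmd7, Psmd8, Psmd11, Psmd12 and Psmd14), the ATPases Psmc2 and Psmc3, and Psme4. The remaining 2 non-ATPase and 4 ATPase genes were not called. Without young uninjured library 1, 7 members were called, each lower. Over the 8 fits that left out a library, Psmc2, Psmc3 and Psmd6 each lost the call in 5, Psmd12 in 4, Psmd9 in 2 and Psmd11 in 1, while the other 7 members called kept it. Summed fibroblast markers were 453 to 789 CPM at day 35 in young muscle, against 216 to 375.6 CPM uninjured, and 815 to 1038 CPM at day 35 in old vehicle muscle, against 142 to 423 CPM uninjured; their part in these results was not tested.

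Psmd8 had 241, 187, 178 and 193 CPM at day 35 in young muscle, against 521, 401, 375 and 296 CPM uninjured. Its log2 fold change was -0.996 (SE 0.17, adjusted p = 0.000133) with no overlap, and -0.78 with library size alone. Psme4 had 393, 514, 549 and 458 CPM at day 35 in young muscle, against 922, 733, 1172 and 663 CPM uninjured, a log2 fold change of -0.87 (SE 0.17, adjusted p = 0.000685). Psmd2 had 378, 369, 411 and 397 CPM at day 35, against 839, 532, 861 and 540.4 CPM uninjured, a log2 fold change of -0.83 (SE 0.15). Psmc2 had 163, 143, 135 and 174 CPM at day 35, against 265, 179, 231 and 164 CPM uninjured, groups that overlapped, with a log2 fold change of -0.45 (adjusted p = 0.0348). For Psmd2, young muscle at day 35 thus had levels in the range of old uninjured muscle. Psmd11 was called lower (-0.73, adjusted p = 0.0109) although its groups overlapped, and not without young uninjured library 1 (-0.37, adjusted p = 0.154). Psmd9 was the higher call, with 29.6, 25.2, 21.7 and 28.8 CPM at day 35, against 14.6, 17.1, 18.4 and 19.9 CPM uninjured, a log2 fold change of 0.59 (SE 0.17, adjusted p = 0.0136).

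Old vehicle muscle had Psmd8 as the single member called at day 35, beside 5.64% of all genes (3.17% higher and 2.47% lower). Libraries did not overlap for 1 member with day 35 higher and 6 with day 35 lower, beside 9.39% and 9.98% of all genes. Psmd8 had 177, 197, 195 and 172 CPM at day 35, against 269.9, 350.1, 327 and 297 CPM uninjured, a log2 fold change of -0.75 (SE 0.17, adjusted p = 0.00507). Psmd8 was therefore the gene called lower at day 35 at both ages, in comparisons that share no library. In old muscle 16 of the 17 19S genes had a negative log2 fold change. The medians were small, -0.11 for ATPases and -0.19 for non-ATPase genes, beside 0.02 for all genes. The share of negative values over all genes is not given, so this count is no result about the class. A fit of only these groups also called Psmd4, Psmd7, Psmc5 and the assembly factor Psmd10 lower. The share of all genes called in that fit is not given either. No member was called for the difference of the day 35 response between ages, beside 0% of all genes; 4 had an unadjusted p under 0.05 upward and 1 downward, and Psmd2 had a log2 difference of 0.63 (adjusted p = 0.347), so a difference between ages at day 35 was not shown.

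The immunoproteasome genes and their counterparts had no call at day 35 on the TMM scale. Psmb8 had 3.68, 7.00, 1.90 and 3.73 CPM at day 35 in old vehicle muscle and 4.52, 3.99, 1.73 and 2.82 CPM in young muscle, with log2 fold changes over uninjured muscle of 0.69 and 0.49. Psmb9 had 3.94, 3.44, 2.39 and 2.75 CPM in old vehicle muscle and 2.58, 1.44, 1.23 and 2.82 CPM in young muscle (0.39 and 0.78). Psmb10 had 10.4, 11.6, 7.67 and 10.04 CPM in old vehicle muscle and 9.10, 6.38, 7.50 and 7.45 CPM in young muscle (0.17 and 0.59). The day 35 libraries overlapped the uninjured ones for these genes, except for Psmb10 in young muscle, where all 4 were higher (adjusted p = 0.126). Psme1 had 33.7, 29.8, 25.9 and 28.4 CPM at day 35 in old vehicle muscle and 26.5, 25.6, 21.3 and 27.98 CPM in young muscle (0.15 and 0.23). Psme2 had 12.6, 8.35, 6.05 and 11.5 CPM in old vehicle muscle and 6.26, 7.44, 7.22 and 9.88 CPM in young muscle (-0.22 and 0.33). Both overlapped with uninjured muscle at each age. Of the constitutive subunits, Psmb5 had 116, 122, 117 and 107 CPM at day 35 in old vehicle muscle and 105, 94.3, 91.9 and 124 CPM in young muscle (0.18 and 0.43). Psmb6 had 138, 143, 119.9 and 138 CPM in old vehicle muscle and 125, 114, 112 and 145 CPM in young muscle (0.07 and 0.10). Psmb7 had 145, 159.8, 143 and 156 CPM in old vehicle muscle and 151, 144, 154 and 169 CPM in young muscle (-0.07 and -0.15). Psmb5 in young muscle was above every uninjured library (adjusted p = 0.151), and the others overlapped. With library size alone, which shifts the fold changes of all genes upward there, Psmb5 was called higher in young muscle by edgeR (0.65, adjusted p = 0.0254).

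**Figure D5:**
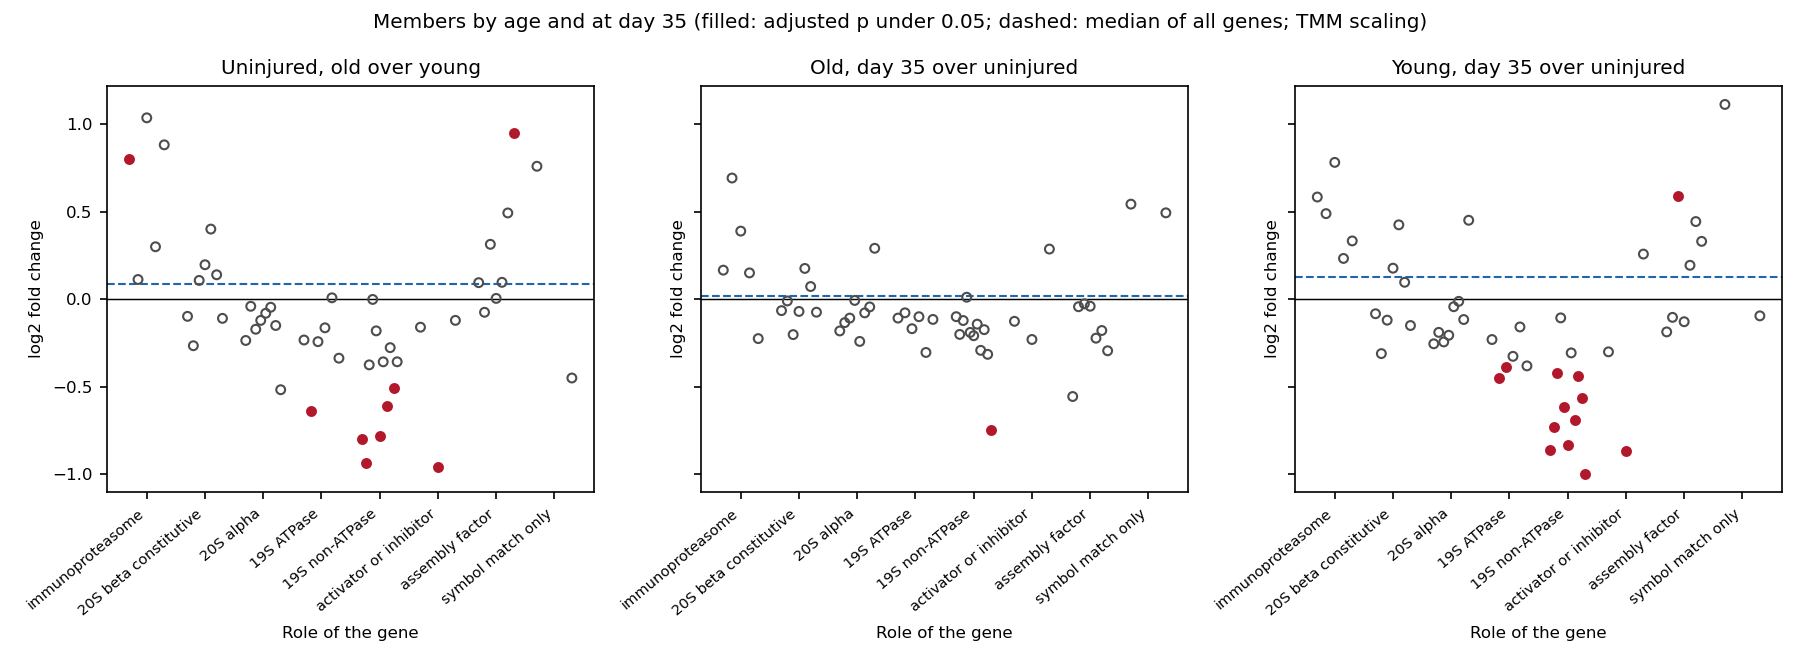
Log2 fold changes by role for age in uninjured muscle (old over young) and for day 35 over uninjured muscle in old and young vehicle muscle, on the TMM scale; each point is a gene, filled where called, and the dashed line is the median of all genes. Psme4 lies at -0.96 for age and at -0.87 for day 35 in young muscle, and Psmd8 is called at day 35 at both ages; with library size alone the 19S non-ATPase medians are -0.18 for age and -0.40 for day 35 in young muscle.

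Old and young vehicle muscle were also compared at the same day after injury. At day 7 no member was called by edgeR, beside 2.43% of all genes (0.251% higher and 2.18% lower), and 8 had an unadjusted p under 0.05, each lower in old muscle. Libraries did not overlap for 5 members, each lower in old muscle, and for none higher, beside 4% and 2.68% of all genes; the 5 were Psmc3, Psmc6, Psmd6, Psmd7 and Psmd12, all of the 19S cap. Psmb7 (-0.46, adjusted p = 0.083), the lid subunit Psmd6 (-0.46, adjusted p = 0.0776) and the lid subunit Psmd7 (-0.41, adjusted p = 0.0918) were nearest; voom called these 3 and DESeq2 called Psmb7 and Psmd6. Psmb8 and Psmb9 had log2 fold changes of 0.70 and 0.65, Psmb9 with an adjusted p of 0.271. At day 35 no member was called by edgeR, beside 3.51% of all genes (1.72% higher and 1.79% lower), and 1 had an unadjusted p under 0.05. Libraries did not overlap for 4 members, each lower in old muscle, and for none higher, beside 8.18% and 8.34% of all genes; the 4 were Psmc5, Psmd4, Psmd7 and Psmd11, a share of the 49 close to that of all genes.

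BI01 was compared with vehicle in old injured muscle at each day after injury. At day 7 no member was called, nor was any gene in the series (0%), and no member had libraries that did not overlap, beside 0.964% higher and 0.794% lower of all genes. In edgeR, 3 members had an unadjusted p under 0.05: Psmb4, a structural beta subunit, at 0.40, Psmb5 at 0.43 and the ATPase Psmc1 at 0.29 on the log2 scale. The smallest adjusted p of the members was 0.741. Of the 49 members, 42 had a positive log2 fold change, and their median was 0.18, beside 0.01 for all genes; the median half-width of the 95% intervals was 0.33.

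With BI01 Psmb8 had 13.97, 21.2, 18.1 and 20.9 CPM at day 7, against 14.9, 9.68, 19.2 and 12.2 CPM with vehicle. The log2 fold change was 0.41 with an interval from -0.35 to 1.16, and the groups overlapped. Psmb9 had 9.03, 11.8, 16.7 and 14.2 CPM with BI01, against 8.58, 11.2, 15.9 and 7.20 CPM with vehicle, a log2 fold change of 0.27 (interval -0.38 to 0.92). Psmb10 had 15.7, 26.5, 23.3 and 23.2 CPM with BI01, against 20.4, 13.6, 24.3 and 8.79 CPM with vehicle, a log2 fold change of 0.40 (interval -0.09 to 0.89). Intervals of this width leave an increase of 1.5-fold undecided for these genes. Psme1 had 27.5, 30.9, 37.5 and 36.9 CPM with BI01, against 35.1, 26.2, 35.5 and 28.1 CPM with vehicle (log2 fold change 0.09). Psme2 had 17.0, 24.03, 8.98 and 18.2 CPM with BI01, against 20.7, 5.92, 18.6 and 17.5 CPM with vehicle (0.12). The groups overlapped for both. Psmb5 had 52.0, 62.7, 72.1 and 85.6 CPM with BI01, against 43.3, 53.6, 74.7 and 30.3 CPM with vehicle. Psmb6 had 64.3, 75.4, 80.6 and 86.4 CPM with BI01, against 59.6, 72.3, 75.9 and 46.9 CPM with vehicle (0.27). Psmb7 had 44.2, 48.7, 59.9 and 69.8 CPM with BI01, against 36.4, 47.5, 63.2 and 44.4 CPM with vehicle (0.22). These groups overlapped as well. The ratio of Psmb8 to Psmb5 was 9.05% ± 1.41 with BI01 and 9.73% ± 3.20 with vehicle, and that of Psmb9 to Psmb6 was 8.53% ± 1.46 and 8.46% ± 1.53.

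At day 35 no member was called for BI01 and none had an unadjusted p under 0.05, beside 0% of all genes called; each adjusted p was 1. Log2 fold changes were negative for 41 of 49 members, with a median of -0.13. Psmb5 had 88.7, 96.0, 102 and 83.0 CPM with BI01, against 116, 122, 117 and 107 CPM with vehicle. These libraries did not overlap, as was so for 3 members in this direction, beside 1.59% of all genes, and for none in the other, beside 1.43%. The log2 fold change of Psmb5 was -0.32 (interval -0.73 to 0.09). Psmb8 had 8.20, 3.36, 5.29 and 2.30 CPM at day 35 with BI01, Psmb9 3.02, 1.79, 3.75 and 2.73 CPM and Psmb10 8.27, 8.06, 9.98 and 8.11 CPM, with log2 fold changes over the vehicle values given above of 0.23, -0.15 and -0.20. Psme1 had 33.1, 28.0, 28.5 and 29.2 CPM with BI01 and Psme2 7.77, 6.05, 12.6 and 4.66 CPM (0.01 and -0.31). Psmb6 had 118, 138, 118 and 104 CPM with BI01 and Psmb7 131, 145, 135 and 134 CPM (-0.17 and -0.15). Each of these 7 overlapped between BI01 and vehicle.

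Other genes of the pathway were read from 4 lists. For comparison with each list at day 7, 27.5% of all tested genes were called lower in young and 29.8% in old muscle. The shares called higher were 33.3% and 34.4%, each on the TMM scale. Of 14 tested proteasome partners, such as shuttle factors and deubiquitinases, 11 were called lower and none higher at day 7 at each age on the TMM scale (medians -0.99 in young and -0.93 in old muscle). Scaled by library size it was 2 higher and 5 lower in young and 4 higher and 5 lower in old muscle. Zfand5, a protein that activates the proteasome in wasting muscle, had 140.0 ± 32.7 CPM at day 7 in young muscle, against 1072 ± 181 CPM uninjured, and 98.8 ± 20.8 CPM at day 7 in old vehicle muscle, against 428 ± 51.3 CPM uninjured. Zfand5 was also called lower in old than in young uninjured muscle (log2 fold change -1.33, adjusted p = 3.32e-05).

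Of 9 tested genes for transcription and recovery of the proteasome, 8 were called lower in young muscle at day 7, and 6 lower and 2 higher in old muscle; with library size alone it was 5 lower and 1 higher, and 2 lower and 3 higher. Nfe2l1, the factor that renews proteasome genes when activity is low, had 342 ± 51.4 CPM at day 7 in young muscle, against 1184 ± 116 CPM uninjured. In old vehicle muscle it had 254 ± 57.0 CPM at day 7, against 1155 ± 81.0 CPM uninjured, so that its log2 fold change was -2.19 (adjusted p = 9.83e-12), and -1.79 in young muscle. Its level did not separate the ages uninjured (-0.04). Ddi2, the protease that activates Nfe2l1, had 125 ± 8.06 CPM in old uninjured muscle, against 335 ± 79.9 CPM in young uninjured muscle, a log2 fold change of -1.42 (adjusted p = 2.83e-05). In all, 5 of the 9 were called lower for age, among them Nfe2l2, the antioxidant response factor, at -1.51 (adjusted p = 7.04e-05). At day 35 in young muscle 7 of the 9 were called lower. Among all genes, 7.65% were called lower for age and 8.66% at day 35 in young muscle. With library size alone it was 4 of the 9 in each comparison.

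Among 11 genes of ubiquitin and its first conjugation steps, 6 were called lower and 1 higher in young muscle at day 7, and 7 lower and none higher in old muscle. Scaled by library size it was 5 higher and 2 lower, and 5 higher and 4 lower. Ube2d3, a ubiquitin-conjugating enzyme, had log2 fold changes of -1.08 (adjusted p = 6.62e-09) in young and -1.30 (adjusted p = 1.91e-10) in old muscle on the TMM scale.

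The antigen processing and interferon list moved with the immunoproteasome genes. Of 19 tested genes, 17 were called higher and 1 lower at day 7 in young muscle and 18 higher and 1 lower in old muscle. The medians were 1.68 and 1.83. Among all genes, 33.3% were called higher in young and 34.4% in old muscle. With library size alone 18 and 19 of the list were higher. Irf1, the interferon-responsive factor known to induce the immunoproteasome genes, had 12.6 ± 3.03 CPM at day 7 in young muscle, against 4.00 ± 0.705 CPM uninjured, and 19.1 ± 5.70 CPM at day 7 in old vehicle muscle, against 7.21 ± 1.21 CPM uninjured. Its log2 fold change was 1.66 (adjusted p = 1.46e-06) in young and 1.39 (adjusted p = 8.03e-06) in old muscle, and Irf1 was also called higher in old than in young uninjured muscle (0.86, adjusted p = 0.0215). Tap1 had log2 fold changes of 2.77 in young and 2.64 in old muscle. Erap1, which trims peptides, was the lower call at each age (-0.76 in young and -0.38 in old muscle), and with library size alone no gene of the list was called lower.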

How the data were processed

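Per the labels, RNA came from a Qiagen miRNeasy Mini Kit, and Novogene prepared and sequenced the libraries. The submitters' processing notes name HISAT2 and mm10. Not given in the sources used here are the aligner's version, the counter, the annotation and whether counting used strand. Values in the deposited table are whole-number counts per gene, with gene length and coordinates, for 32 libraries; 0 columns were left unused. Columns were matched to groups by name but not to single samples, so a library is named by its group and the column's number. No library pair within a group agreed within sampling noise.

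In edgeR 4.0.16 (R 4.3.3), counts got TMM factors and were filtered with filterByExpr and fitted with a robust quasi-likelihood model of 1 mean per group over all 32 libraries. The 9 comparisons of 2 groups and 2 differences of differences were contrasts, adjusted by Benjamini-Hochberg over all genes tested. SE and 95% intervals come from this model. CPM values are TMM-scaled, and log2(CPM + 1) was used for per-library means. A list is described by its counts and median, with no test. The call procedure was tested on simulated data in which few genes changed, in both directions. That setting lacks the broad change of day 7, so it cannot speak to the choice of scaling.

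Values in each library are given for the immunoproteasome genes and their counterparts, and for the called member with the largest change of each role in a comparison (for Psma8 as summed counts and for Psme2b as means); other genes named were chosen after their values were seen. The members and lists were chosen with earlier results of these data known. The alternatives were library size alone, DESeq2 size factors, no filter on low counts, DESeq2 1.42.0, voom of limma 3.58.1, a fit of only the groups compared, a pseudocount of 0.25, leaving out each library and, added after seeing the data, the column number as a block. 4 pseudogene rows with similar symbols were not used, and reads shared with them, or between overlapping genes, make member counts uncertain. A few results are not reported here.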

Additional observations from a re-analysis of the deposited data

Results flagged for a closer look

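Within each group of 4 libraries, a single library of 18 members described by library was looked at for standing far from the other 3. Of 144 gene and group combinations, and 8 values by group of the immunoproteasome summary, 11 were picked out, each a gene, where chance picks about 1 in 20. Psmb10 had 2.58 CPM in young uninjured library 3, against 5.72 to 5.98 CPM in the others, and 9.98 CPM in old day 35 library 8 with BI01, against 8.07 to 8.27 CPM. Psmc5 had 171 CPM in young uninjured library 1, against 141.5 to 146 CPM, and 139 CPM in young day 35 library 1, against 133.2 to 133.3 CPM. Psme2 had 17.6 CPM in young day 7 library 5, against 8.89 to 10.1 CPM. Psmg4 had 3.20 CPM in young day 7 library 4, against 6.15 to 6.54 CPM. Psmc2 had 155 CPM in old uninjured library 9, against 126 to 129.9 CPM. Psma8, with few counts, had 0.0773 CPM in young uninjured library 1, 0.0398 CPM in old uninjured library 7 and 0.0810 CPM in old vehicle day 35 library 9, where the others had 0, and it had 0 CPM in day 35 library 8 with BI01, where the others had 0.0717 to 0.0747 CPM.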

How the results depend on the processing

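Column numbers are shared by the groups of the 35-day set at each age, and numbers 7 to 9 by old uninjured and old day 7 muscle, but nothing states that a number marks an animal. Correlations of same-numbered libraries' deviations from their group means ran from -0.03 to 0.16 for day 35 in young muscle (best with the own number for 3 of 4), from 0.01 to 0.11 for day 35 in old muscle (2 of 4), from -0.10 to 0.03 for BI01 at day 35 (0 of 4) and from 0.04 to 0.15 for day 7 in old muscle (3 of 3), so the numbers were not taken as pairs. A fit with the column number as a block, added after seeing the data, called 13 members at day 35 in young, 1 at day 35 in old, 38 at day 7 in old muscle, and 0 for BI01 at day 35 and for the age difference of the day 35 response; each was also called without the block, and Psmd13, Psma5 and Psmf1 lost the call at day 7 in old muscle. The other comparisons share fewer than 2 numbers. With library size alone, Psmb6 at day 7 in young muscle turned to a log2 fold change of 0.40 and Psmd9 at day 7 in old muscle to 0.32, and 23 members were called at day 7 in old and 7 at day 35 in young muscle. DESeq2 called 14 members for age uninjured, 2 at day 35 in old muscle and 2 for age at day 7, where voom called 3. A fit of only the groups compared called 5 for age uninjured, 5 at day 35 in old muscle and 1 for age at day 35. For the age difference of the day 7 response, library size alone called 3, DESeq2 size factors 2 and DESeq2 3. Shares of all genes called are not given for these alternatives, nor for the fits that left out a library. A higher or lower count of members under them is therefore no result about the members.

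Leaving out 1 library, the members called were 6 to 14 for age uninjured, the most without young uninjured library 4. They were 36 to 41 at day 7 in young muscle, 37 to 41 at day 7 in old muscle and 7 to 16 at day 35 in young muscle, the fewest without young uninjured library 1. For age at day 7 they were 0 to 2, with 1 call (Psmd6) without young day 7 library 4 and 2 (Psmb7 and Psmc5) without old day 7 library 9. For the age difference of the day 7 response they were 0 to 3, with 3 calls without young uninjured library 4, 2 without young uninjured library 2, and 1 each without old uninjured library 9 and old day 7 library 9. Psmd1 lost its age call without young library 3 (adjusted p = 0.0597) and Psmd7 without young library 1 (adjusted p = 0.0969).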
